A study of Mus musculus with 8 samples.

Results

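The genes examined here are 45 mouse genes that make ribosomes, from the RNA polymerase I (Pol I) machinery that transcribes the ribosomal RNA to the factors that fold, modify and assemble it. The list is one of gene symbols with a role in this pathway, drawn up when earlier results of these data were known, and its rule uses no measured value. A count was listed for 44 of the 45 among the 37310 genes of the table, and all 44 were among the 13028 genes that passed the filter on low counts. *Noc2l*, a factor of large subunit assembly, has no row under this symbol and is not analysed here. By role, the members are 5 genes of Pol I transcription, 3 of the box C/D and 4 of the box H/ACA small nucleolar ribonucleoproteins (snoRNPs), 5 nucleolar scaffold, GTPase and helicase genes, 15 factors of small subunit assembly and 13 of large subunit assembly.

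RNA was sequenced from NMuMG, a line of epithelial cells that derives from the mammary gland of a normal mouse, in 4 groups of 2 biological replicates. The groups were control cells without treatment, control cells given 10 ng/ml TGF-β1 for 2 h, *Lnc-Nr6a1*-depleted cells without treatment, and such depleted cells given the same dose for the same time. TGF-β is a cytokine that starts epithelial-mesenchymal transition in this line, and *Lnc-Nr6a1* is a long non-coding RNA that it induces. The depleted cells, labelled KO, carry a CRISPR-Cas9 deletion that covers the promoter and the first exon of *Lnc-Nr6a1* and grew from individually sorted cells, so they differ from the control cells by clonal origin as well as by the deletion. Control cells and those labelled KO were grown in the same medium with serum and insulin, and the untreated cells are described only as controls. The labels do not say which clone each library came from, and the tests below measure the spread between these libraries.

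Ribosome production starts in the nucleolus, where Pol I transcribes a long precursor of the ribosomal RNA. Small nucleolar RNAs guide its chemical modification, with box C/D snoRNPs adding methyl groups to ribose and box H/ACA snoRNPs converting uridine to pseudouridine. The small subunit processome and the assembly factors of the large subunit then cut and fold the precursor into the small and large subunits. In proliferating epithelial cells this is among the most costly syntheses of the cell, and MYC is a well known activator of its genes.

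The libraries held 4297832 to 13574397 counts, and the members took 0.393 to 0.590% of them. The targeted gene, listed as *Gm13507*, had 3 and 14 counts in untreated control cells, 25 and 35 after TGF-β, 11 and 7 in the untreated libraries labelled KO and 0 and 0 in the treated ones. In CPM (counts relative to library size, after edgeR's TMM factors) the untreated control libraries had 0.362 and 1.71 and the untreated libraries labelled KO 2.43 and 0.930, a log2 fold change of 0.61 (SE 0.83, edgeR, Benjamini-Hochberg adjusted p = 0.785). Between the treated libraries, 25 and 35 against 0 and 0 counts, the targeted RNA was lower under the label KO (edgeR, Benjamini-Hochberg adjusted p = 0.00984). In the untreated libraries it was not lower under the label KO, and in the libraries labelled KO it fell from 11 and 7 to 0 and 0 counts with TGF-β (edgeR, Benjamini-Hochberg adjusted p = 0.0356). The untreated values thus go against the label, and every direction given below between control cells and those labelled KO follows the labels. Epithelial markers summed to 5873 to 5951 CPM in untreated and 8029 to 10940 CPM in treated control libraries, and to 6632 to 6970 CPM in untreated and 7939 to 10400 CPM in treated libraries labelled KO. Their sum was thus higher with TGF-β in every library, and its part in the TGF-β comparisons below was not tested. Of the 9 markers, *Epcam*, *Cldn3* and *Esrp1* never exceeded 3 counts. *Krt7* stayed at or below 1.76 CPM, and *Cldn4* ran from 0 to 12.9 CPM. The sum thus came almost wholly from *Krt8* (2126 to 4345 CPM), *Krt18* (2441 to 5797), *Krt19* (928 to 1376) and *Cdh1* (193 to 400). The summed levels of 6 fibroblast, 4 immune, 3 endothelial and 3 adipocyte markers stayed at or below 5.58 CPM in every library. In bulk RNA, fewer cells of a kind and less RNA per cell cannot be told apart. The libraries also differed in how counts depended on base composition. The Spearman correlation of a library's deviation with the GC share of a gene's exons ran from -0.53 in the second treated control library to 0.34 in the second treated library labelled KO, across 13028 genes that share those libraries.

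Of the 7 members that passed the thresholds in any comparison, 5 have a promoter window in the RefSeq table of GRCm38.p6, which runs from 250 bases before to 50 bases after the transcription start. These 5 are shown because their genes carry the differences described below. They are *Nop58* (chr1:59684756-59685055, plus strand), *Dkc1* (chrX:75095604-75095903, plus strand), *Nop10* (chr2:112261676-112261975, plus strand), *Ncl* (chr1:86359406-86359705, minus strand) and *Gnl3* (chr14:31019082-31019381, minus strand). Capitals mark matches on either strand to 8 short motifs, which are the E-box CACGTG bound by MYC, ETS (CCGGAAG), NRF1 (GCATGCG), the GC box (GGGCGG), the cyclic AMP response element (CRE, TGACGT), YY1 (AAGATGG), the SMAD motif (GTCTAG) and the TATA box (TATAAA).
Nop58: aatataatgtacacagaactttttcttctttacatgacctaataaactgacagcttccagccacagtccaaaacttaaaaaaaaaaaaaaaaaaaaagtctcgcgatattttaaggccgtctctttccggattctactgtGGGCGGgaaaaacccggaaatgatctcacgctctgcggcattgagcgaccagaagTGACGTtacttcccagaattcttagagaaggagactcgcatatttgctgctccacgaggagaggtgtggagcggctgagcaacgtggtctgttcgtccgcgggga
Dkc1: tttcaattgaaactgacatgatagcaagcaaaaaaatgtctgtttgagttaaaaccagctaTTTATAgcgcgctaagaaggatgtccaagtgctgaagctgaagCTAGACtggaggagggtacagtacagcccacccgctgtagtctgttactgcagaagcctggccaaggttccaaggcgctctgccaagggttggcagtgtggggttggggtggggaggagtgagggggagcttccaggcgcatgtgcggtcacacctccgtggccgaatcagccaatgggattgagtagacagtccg
Nop10: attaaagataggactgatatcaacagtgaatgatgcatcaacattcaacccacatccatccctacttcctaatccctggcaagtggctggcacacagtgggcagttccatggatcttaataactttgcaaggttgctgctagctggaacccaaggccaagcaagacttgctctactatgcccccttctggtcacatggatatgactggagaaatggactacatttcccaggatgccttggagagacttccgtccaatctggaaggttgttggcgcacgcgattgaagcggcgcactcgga
Ncl: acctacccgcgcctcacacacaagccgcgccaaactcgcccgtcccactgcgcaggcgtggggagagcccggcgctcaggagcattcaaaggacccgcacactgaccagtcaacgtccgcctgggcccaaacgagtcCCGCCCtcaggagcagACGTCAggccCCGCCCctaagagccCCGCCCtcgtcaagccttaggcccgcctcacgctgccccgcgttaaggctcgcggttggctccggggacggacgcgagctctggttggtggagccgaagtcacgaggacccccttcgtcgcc
Gnl3: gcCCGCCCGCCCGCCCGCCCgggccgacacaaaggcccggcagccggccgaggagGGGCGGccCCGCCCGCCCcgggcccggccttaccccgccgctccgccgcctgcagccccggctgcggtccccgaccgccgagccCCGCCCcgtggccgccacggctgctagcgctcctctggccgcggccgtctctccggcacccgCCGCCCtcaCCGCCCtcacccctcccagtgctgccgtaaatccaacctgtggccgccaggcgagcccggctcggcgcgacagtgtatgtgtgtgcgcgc

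The *Nop58* window holds 1 GC box and 1 CRE motif, that of *Ncl* 3 GC boxes and 1 CRE motif, and that of *Gnl3* 10 GC boxes, some of which overlap. The *Dkc1* window holds 1 SMAD and 1 TATA motif, and no motif of the 8 was found in that of *Nop10*. None of the 5 windows has an E-box. Over the 47 windows of the 39 members with an entry, 19.1% hold an E-box, against 7.15% of all 32851 windows in the table. The ETS motif is in 29.8% of the member windows and 8.86% of all, and the GC box in 70.2% and 35.7%. SMAD motifs are in 14.9% and 8.37%, CRE motifs in 17.0% and 7.51%, and TATA motifs in 4.26% and 13.6%. NRF1 motifs (4.26% and 3.58%) and YY1 motifs (6.38% and 6.34%) are at nearly the same share. The 9 members with an E-box are *Grwd1*, *Imp4*, *Ltv1*, *Nop2*, *Pes1*, *Rrn3*, *Tsr1*, *Utp20* and *Wdr43*. A match is a description of these letters only.

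Ribosome biogenesis genes were well expressed in NMuMG cells. Per kilobase of exon, the median member stood at 25.5 CPM per kb in untreated control cells, against 9.11 for the 11424 tested protein-coding genes, and 42 of the 44 members lay above that median. Of the roles, the nucleolar scaffold, GTPase and helicase genes had the highest median RNA level, 73.5 CPM per kb, with a range of 62.5 to 178. *Npm1* (nucleophosmin), which forms the granular phase of the nucleolus, was the highest member at 116.7 to 222 CPM per kb over the 8 libraries. *Nhp2*, an RNA-binding core protein of the box H/ACA snoRNP, followed at 81.6 to 132 CPM per kb. The ranges of these 2 genes overlapped.

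Within complexes the members were uneven in CPM per kb. The length used is the union of all exons annotated for a gene, for example 4099 bases for *Nop56* and 8257 for *Ncl*. How far this length shapes the order of the genes was not tested. Of the box H/ACA core, *Nhp2* had a mean of 99.7 CPM per kb in untreated control cells, *Nop10* 71.5, the pseudouridine synthase *Dkc1* (dyskerin) 25.7 and *Gar1* 6.48, the lowest of all members. Of the box C/D core, *Nop58* had 73.7, *Nop56* 50.9 and the methyltransferase *Fbl* (fibrillarin) 11.6 CPM per kb. The *Fbl* value is uncertain, since 81.2% of the windows of 75 bases along its exons occur elsewhere in the genome. Of the PeBoW complex, which processes the large subunit precursor, *Bop1* had 78.9, *Pes1* 39.0 and *Wdr12* 9.50. The Pol I genes spanned 13.2 to 38.9 CPM per kb, with the initiation factor *Rrn3* at the top, the rDNA-binding *Ubtf* (28.8), the shared subunit *Polr1c* (28.7) and the largest subunit *Polr1a* (25.3) between, and the second largest subunit *Polr1b* at the bottom. Small subunit factors had a median of 22.6 CPM per kb, from *Bysl* at 13.3 to *Imp3* at 57.1, and large subunit factors 21.2, from *Rrp1b* at 8.13 to *Bop1*.

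**Figure D1:**
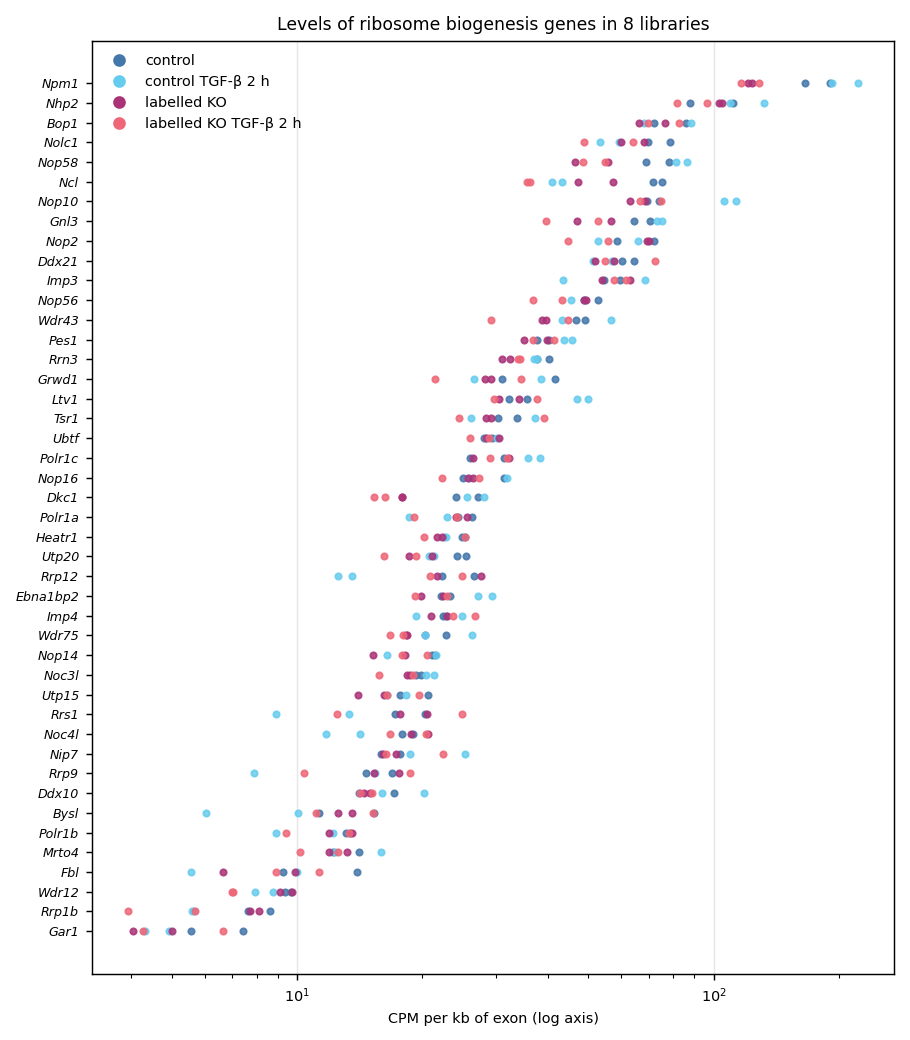
Level of each of the 44 ribosome biogenesis genes in CPM per kb of exon (log axis), with 1 point for each of the 8 libraries, coloured by group and ordered by the mean of the untreated control libraries. The libraries of a gene mostly lie close together, and the genes run from *Npm1* (116.7 to 222 CPM per kb) down to *Gar1* (4.03 to 7.41).

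The first comparison asks what TGF-β did within 2 h in control cells. Most members lay close to 0. *Nop10*, the smallest core protein of the box H/ACA snoRNP, rose, while *Ncl* (nucleolin), an RNA-binding protein of the nucleolus, and *Rrp12*, a repeat protein needed for maturation and export of pre-ribosomes, fell. These 3 were the members called by an adjusted p below 0.05 with an absolute log2 fold change above 0.5. Of all 13028 genes, 4.69% were called higher and 4.47% lower, 9.16% in all, so that 1 of 44 members higher (2.27%) and 2 lower (4.55%) are near the background. The members' median log2 fold change was -0.04, against 0.02 for all tested genes, and 35 of the 44 lay within 0.5 of 0. An unadjusted p below 0.05 was reached by 10 members (22.7%, against 26.8% of all genes), and 26 were below 0 (59.1%, against 48.6%).

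*Ncl* stood at 622.5 and 591.8 CPM in untreated control cells and at 337 and 357 after TGF-β. Both treated libraries lay below both untreated ones, at a log2 fold change of -0.81 (SE 0.14, by edgeR's quasi-likelihood test with Benjamini-Hochberg adjusted p = 0.00874), 1.75-fold lower. *Rrp12* had 114.8 and 96.4 CPM without and 54.2 and 58.6 CPM with TGF-β. The groups did not overlap here either, and the log2 fold change of -0.91 (SE 0.18, edgeR, Benjamini-Hochberg adjusted p = 0.0165) made it 1.87-fold lower. *Nop10* had 76.7 and 81.9 CPM without and 117.6 and 125.5 CPM with TGF-β. Its treated libraries lay above both untreated ones, at a log2 fold change of 0.62 (SE 0.14, edgeR, Benjamini-Hochberg adjusted p = 0.0288), 1.53-fold higher.

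None of the 5 Pol I genes was called. The largest change among them was that of *Polr1c*, with 71.4 and 59.3 CPM before and 87.2 and 81.6 CPM after treatment. Its groups did not overlap, but the log2 fold change of 0.37 (SE 0.16) had an adjusted p of 0.182 (edgeR, Benjamini-Hochberg). *Polr1b* (-0.32) and *Polr1a* (-0.29) were on the other side of 0, and *Rrn3* (-0.06) and *Ubtf* (0.03) close to it. With the correction for GC given below, *Rrn3* was at -0.15 and *Ubtf* at 0.27, neither called. Among the other core snoRNP genes, *Nop58* was at 0.18, *Nop56* at -0.11 and *Fbl* at -0.57 with an SE of 0.35, and *Nhp2* at 0.28, *Dkc1* at 0.06 and *Gar1* at -0.49 with an SE of 0.30. *Npm1* was at 0.22, the GTPase *Gnl3* (nucleostemin) at 0.14, the helicase *Ddx21* at -0.20 and the snoRNP chaperone *Nolc1* at -0.40.

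Among the assembly factors, 11 of 15 small subunit genes had a log2 fold change below 0 and the 12 large subunit genes were split 6 and 6. *Rrs1*, which loads a small ribosomal RNA onto the large subunit, had 41.6 and 35.2 CPM before and 27.3 and 18.2 CPM after TGF-β. The groups did not overlap, but the treated libraries differed widely from each other, and the log2 fold change of -0.75 (SE 0.32) had an adjusted p of 0.164 (edgeR, Benjamini-Hochberg). *Bysl* (bystin) at -0.72 (SE 0.27), *Rrp1b* at -0.53 (SE 0.19) and *Noc4l* at -0.51 (SE 0.17) also missed the threshold, as did *Ltv1*, a late factor of the small subunit, at 0.51 (SE 0.16). Over the members, the libraries did not overlap and were higher in 10 of 44 (22.7%, against 27.4% of all genes) and lower in 14 of 44 (31.8%, against 26.3%). Without the first or the second untreated control library, 0 members passed, and 1.07% and 2.33% of all genes did. Without the filter on low counts it was 5 members and 9.88% of all genes.

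**Figure D2:**
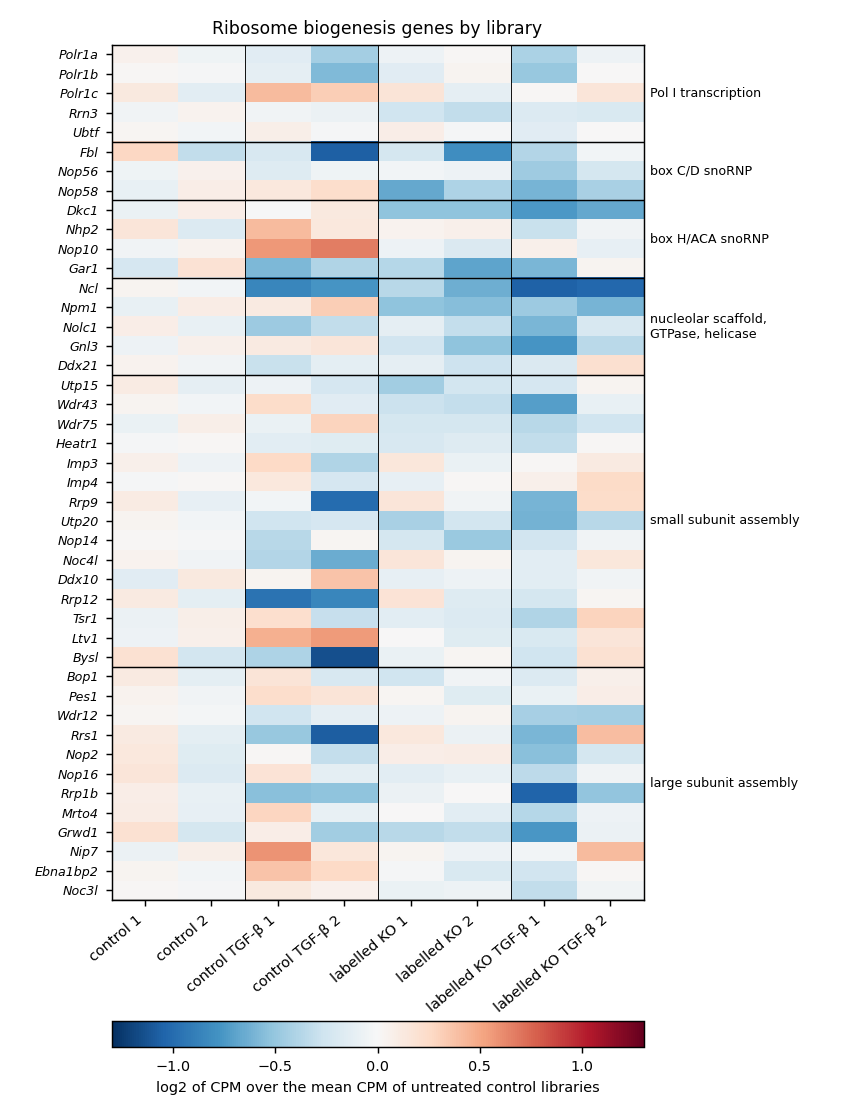
Log2 ratio of each library's CPM to the mean CPM of the untreated control libraries for the 44 genes (rows, grouped by role) in the 8 libraries (columns), from blue (lower) to red (higher). *Ncl* and *Rrp12* are blue and *Nop10* red in both treated control libraries, and *Nop58*, *Dkc1* and *Npm1* are blue in all 4 libraries labelled KO.

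The same treatment was compared in the libraries labelled KO. *Ncl* was the member that fell, and no member rose. *Ncl* had 472.9 and 391 CPM in the untreated and 294 and 299 CPM in the treated libraries. The groups did not overlap, and the log2 fold change was -0.54 (SE 0.14, edgeR, Benjamini-Hochberg adjusted p = 0.0461), 1.46-fold lower. Of all tested genes, 4.25% were called higher and 2.57% lower in this comparison, 6.82% in all, against 0 and 1 of 44 members (2.27%). The members' median was -0.04 and that of all genes 0, and 42 of 44 members lay within 0.5 of 0. With 4 members (9.09%) at an unadjusted p below 0.05, they were fewer than the 22.7% of all genes, and 25 were below 0 (56.8%, against 49.9%).

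The largest fold change below 0 was that of *Rrp1b*, a large subunit factor that binds chromatin, with 59.5 and 62.6 CPM before and 30.3 and 44.0 CPM after TGF-β. Both treated libraries lay below the untreated ones, at a log2 fold change of -0.72 (SE 0.19, edgeR, Benjamini-Hochberg adjusted p = 0.0557). *Nop2*, a methyltransferase of the large subunit RNA, was at -0.47 and *Wdr12* at -0.42, and neither passed. *Nop10*, which rose in control cells, had 75.8 and 69.8 CPM before and 82.8 and 73.9 CPM after TGF-β, a log2 fold change of 0.11 (SE 0.14). *Rrp12*, which fell there, had 119.7 and 93.8 CPM before and 90.2 and 107.6 CPM after it (-0.11, SE 0.17). For both genes these groups overlapped. *Polr1c* had 73.4 and 60.3 CPM before and 66.3 and 72.7 CPM after TGF-β, and *Rrs1* 42.1 and 36.3 before and 25.5 and 50.9 after it, again with overlap. Log2 fold changes of the Pol I genes ran from -0.20 (*Polr1a*) to 0.10 (*Rrn3*), those of the box C/D genes from -0.29 (*Nop56*) to 0.31 (*Fbl*), and those of the small subunit factors from -0.18 (*Rrp9*) to 0.25 (*Utp15*). Libraries were apart and higher in 3 members (6.82%, against 28.4% of all genes) and lower in 8 (18.2%, against 28.3%). The *Ncl* call was lost in 9 of 21 alternative settings, over which its adjusted p ran from 0.0157 to 0.300.

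Without TGF-β, no member passed the test between the libraries labelled KO and control cells, but most lay slightly lower. A log2 fold change below 0 was found for 35 of 44 members (79.5%), against 47.9% of all genes. Called genes made up 1.83% of those tested, 1.03% higher and 0.798% lower. With edgeR, 6 members had an unadjusted p below 0.05 (13.6%, against 14.9% of all genes), and DESeq2 called 1 (*Npm1*, log2 fold change -0.55, against 3.29% of all genes) and limma-voom 0 (against 1.05%). The libraries labelled KO lay below both control libraries without overlap for 19 members (43.2%, against 25.2% of all genes) and above them for 0 (against 26.8%). The median difference was small, -0.09 for the members and 0.02 for all genes.

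The members furthest below 0 were snoRNP and nucleolar genes. *Npm1* had 442 and 506.3 CPM in control libraries against 330.5 and 323 CPM in those labelled KO, a log2 fold change of -0.54 (SE 0.14, edgeR, Benjamini-Hochberg adjusted p = 0.102). *Nop58* (178.6 and 202.5 against 120.1 and 144.7 CPM, log2 fold change -0.52) and *Dkc1* (99.5 and 112.4 against 73.9 and 73.8 CPM, -0.52) were similarly placed. For these 3 genes the groups did not overlap. *Gnl3* had 121.2 and 132.7 CPM in control libraries and 106.7 and 88.5 CPM in those labelled KO (-0.38), also without overlap. *Ncl* was at -0.49, *Nolc1* at -0.21 and *Ddx21* at -0.19, so that all 5 genes of this role were below 0. *Gar1* (-0.53, SE 0.32) and *Fbl* (-0.51, SE 0.36) had few counts. Each library was also corrected for the GC share of its genes' exons, a setting chosen after seeing the data. *Npm1* was then at -0.26, *Ncl* at -0.31, *Gnl3* at -0.23, *Nolc1* at -0.29, *Ddx21* at -0.12, *Nop58* at -0.31, *Dkc1* at -0.37 and *Grwd1* at -0.50. No member was called (against 2.37% of all genes), and the members' median was -0.13, against 0.02 for all genes. *Gar1* lies on chromosome 3, whose 641 tested genes had a median of -0.34. *Fbl* and *Grwd1* (-0.34) lie on chromosome 7, whose 943 genes had a median of -0.25. With the GC correction *Gar1* was at -0.63 and *Fbl* at -0.66. Between the treated groups, chromosomes 3 and 7 had medians of -0.34 and -0.14. There, *Gar1* was at 0.24, *Fbl* at 0.37 and *Grwd1* at -0.22. Other chromosomes were not summarised, and a link of these values to position was not tested.

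Of the 6 roles, Pol I transcription had the median closest to 0 between the untreated groups (-0.03), with values from -0.29 for *Rrn3* to 0.03 for *Ubtf*. With the GC correction these genes ran from -0.23 for *Rrn3* to -0.07 for *Polr1c*, with *Ubtf* at -0.14. Among the small subunit factors, *Nop14* (-0.35), *Utp15* (-0.34), *Utp20* (-0.32), *Wdr43* (-0.29), *Wdr75* (-0.23) and *Heatr1* (-0.19) were below 0 with no overlap between groups. *Rrp12* (0.01), *Imp3* (0.03) and *Noc4l* (0.10) were near 0 or above it. With the GC correction *Nop14* was at -0.35, *Utp15* at -0.23, *Utp20* at -0.27, *Wdr43* at -0.16, *Wdr75* at -0.06 and *Heatr1* at -0.15. *Rrp12* was then at -0.13, *Imp3* at -0.12 and *Noc4l* at -0.05. Large subunit factors ran from -0.34 (*Grwd1*) to 0.09 (*Nop2*). In a fit of the 4 untreated libraries alone, 4 of 44 members were called lower (*Npm1*, *Dkc1*, *Nop58* and *Ncl*) and 0 higher. Of the 13028 tested genes, 417 were then called lower and 380 higher, 6.12% in all. In the fit of all 8 libraries it was 104 lower and 134 higher, 1.83% in all.

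**Figure D3:**
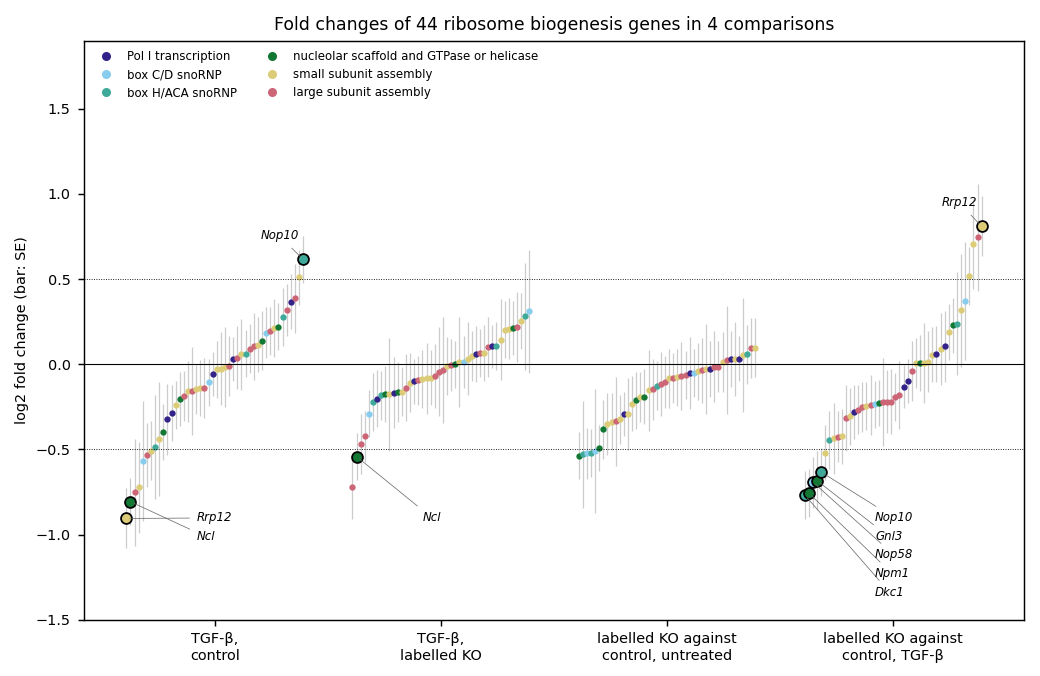
Log2 fold changes (points, with SE as bars) of the 44 genes in 4 comparisons, ordered by value within each and coloured by role, with called genes ringed and named and dotted lines at the threshold of 0.5. No gene is ringed between the untreated groups, and 6 are between the treated ones, of which 5 lie below 0.

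With TGF-β, 6 members differed between the libraries labelled KO and control cells. Lower were *Dkc1* and *Nop10* of the box H/ACA snoRNP, *Nop58* of the box C/D snoRNP, and the nucleolar *Npm1* and *Gnl3*, and *Rrp12* was higher. With the GC correction only *Dkc1* of these 6 stayed called. *Nhp2* and *Grwd1* were then called as well, against 14.9% of all genes. Called genes were frequent in this comparison, 8.47% of all tested genes being higher and 6.57% lower, 15.0% in all. The 5 lower members make 11.4% of the 44, the higher one 2.27%, and both together 13.6%. The members' median log2 fold change was -0.21, against -0.01 for all genes, with 27 members below 0 (61.4%, against 50.9%) and 13 at an unadjusted p below 0.05 (29.5%, against 31.4%). The libraries labelled KO lay apart and lower in 18 members (40.9%, against 27.4% of all genes) and higher in 3 (6.82%, against 28.4%).

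*Dkc1* had 105.3 and 116.1 CPM in the treated control libraries against 63.1 and 66.9 CPM in those labelled KO, a log2 fold change of -0.77 (SE 0.14, edgeR, Benjamini-Hochberg adjusted p = 0.00891). *Nop58* had 210.1 and 223 against 125.8 and 142.1 CPM, a log2 fold change of -0.69 (SE 0.15, edgeR, Benjamini-Hochberg adjusted p = 0.0173). For both genes the untreated libraries labelled KO were already at a similar level, 73.9 and 73.8 CPM for *Dkc1* and 120.1 and 144.7 CPM for *Nop58*. *Npm1* had 513 and 592 against 342.7 and 311 CPM, a log2 fold change of -0.76 (SE 0.14, edgeR, Benjamini-Hochberg adjusted p = 0.0092). *Gnl3* had 137.8 and 141.7 against 74.5 and 99.5 CPM, a log2 fold change of -0.68 (SE 0.17, edgeR, Benjamini-Hochberg adjusted p = 0.0290). In each of these 4 genes both libraries labelled KO lay below both control libraries.

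*Nop10* and *Rrp12* had another pattern. *Nop10* had 117.6 and 125.5 CPM in the treated control libraries against 82.8 and 73.9 CPM in those labelled KO, a log2 fold change of -0.63 (SE 0.14, edgeR, Benjamini-Hochberg adjusted p = 0.0178). Its level there was close to that of untreated control cells, 76.7 and 81.9 CPM. *Rrp12* had 54.2 and 58.6 against 90.2 and 107.6 CPM, a log2 fold change of 0.81 (SE 0.18, edgeR, Benjamini-Hochberg adjusted p = 0.0169), and untreated control cells had 114.8 and 96.4 CPM. For both genes the 2 treated control libraries stood apart from the other 6. These libraries also enter the TGF-β comparison in control cells, so the calls of *Nop10* and *Rrp12* in the 2 comparisons rest on shared values.

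**Figure D4:**
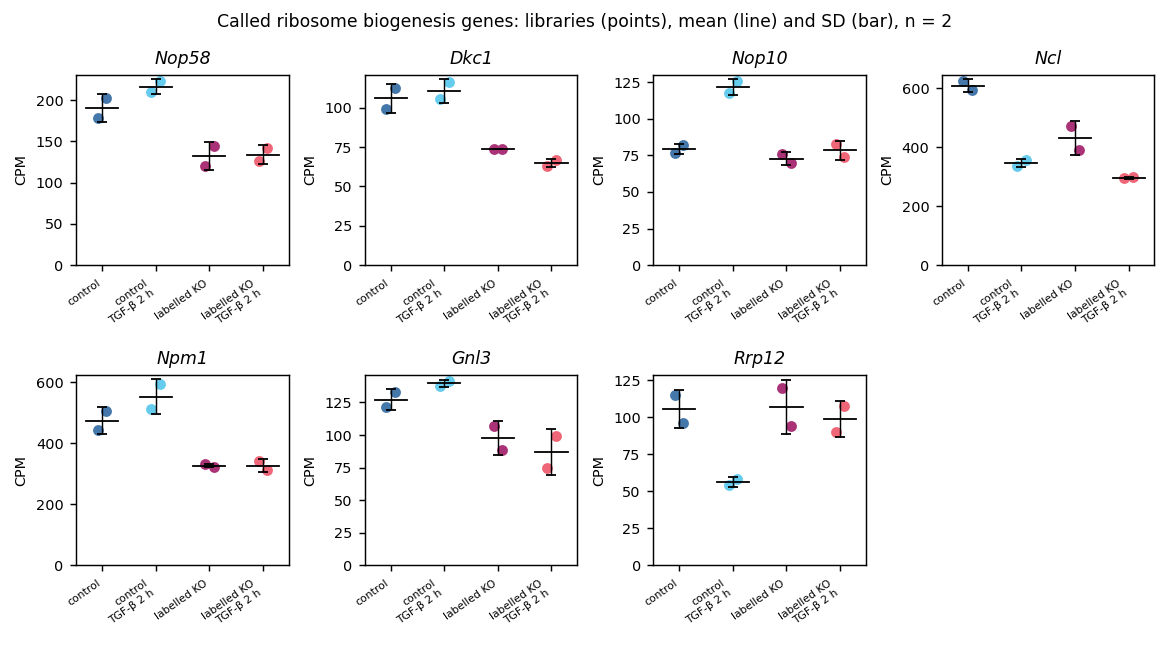
CPM of the 7 genes called in any comparison, in the 4 groups, with each library as a point, the mean of the group as a line and the SD as a bar (n = 2). *Nop58*, *Dkc1*, *Npm1* and *Gnl3* are lower in the groups labelled KO with and without TGF-β, while *Nop10* and *Rrp12* differ from the rest in treated control cells and *Ncl* is lowest in both treated groups.

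Among members that missed the thresholds, *Ltv1* (-0.52, SE 0.16), *Nhp2* (-0.44, SE 0.17), *Ebna1bp2* (-0.43, SE 0.15) and *Wdr75* (-0.42, SE 0.16) lay lower with no overlap between groups, and *Noc4l* (0.52, SE 0.17) and *Bysl* (0.71, SE 0.26) higher. *Ncl*, which had fallen under TGF-β both in control cells and in those labelled KO, was at -0.23 (SE 0.14). *Rrs1* was at 0.75 with an SE of 0.31, its libraries labelled KO having 25.5 and 50.9 CPM and thus overlapping the control libraries. The 5 Pol I genes lay between -0.28 (*Polr1c*) and 0.10 (*Polr1b*). With the GC correction they lay between -0.49 (*Ubtf*) and 0.11 (*Polr1b*), with *Polr1c* at -0.43. Of the 12 large subunit factors, 11 were below 0 without that correction, with a median of -0.22 for the group. The small subunit factors were split, with 5 below and 10 above 0 and a median of 0.02. In a fit of the 4 treated libraries alone 0 members were called (402 of all genes, against 1959). Without the second treated library labelled KO 1 member was called (against 3.73% of all genes), and without the second treated control library 3 (against 9.23%).

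Whether TGF-β acted differently in control cells and in those labelled KO was tested by the interaction of label and treatment, in which 0 members and 0 of all tested genes passed (0%). At an unadjusted p below 0.05 there were 2 members (4.55%) and 1134 genes (8.70%) with edgeR, while DESeq2 called 0 members and 30 genes. Without the filter on low counts, 0 members were called, and 147 of 20463 genes were higher and 64 lower. The difference was below 0 for 22 members (50.0%, as for 50.0% of all genes). The smallest p among the members was that of *Rrp12*, which was at -0.91 in the control and at -0.11 in the labelled KO comparison, a difference of 0.80 on the log2 scale (SE 0.25, edgeR, unadjusted p = 0.00965, Benjamini-Hochberg adjusted p = 0.474). *Nop10* changed by 0.62 and 0.11, a difference of -0.51 (SE 0.20, edgeR, Benjamini-Hochberg adjusted p = 0.518). In control libraries, *Nhp2* had 127.9 and 100.7 CPM before and 151.7 and 125.7 CPM after TGF-β, and in those labelled KO 117.9 and 120 CPM before and 93.5 and 110.4 CPM after it. Its groups overlapped in control cells, and the difference was -0.50 (SE 0.24, edgeR, Benjamini-Hochberg adjusted p = 0.599). These values do not show that the responses were alike.

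In some of the comparisons, though not for TGF-β in the libraries labelled KO, the fold changes of the members varied with the GC share of their exons. Between the treated groups, the Spearman correlation over the 44 members, which share the same 4 libraries, was 0.58 (0.40 over all 13028 genes). It was 0.55 between the untreated groups, -0.39 for TGF-β in control cells and -0.05 for TGF-β in the libraries labelled KO. The 5 members called lower between the treated groups had exons with 40.2% (*Npm1*), 42.1% (*Nop58*), 43.9% (*Dkc1*), 44.0% (*Gnl3*) and 46.5% (*Nop10*) GC, below the members' median of 50.0%, and *Rrp12*, called higher, had 55.8%. After a correction of each library for GC, chosen after this was seen, the members called were *Dkc1* (-0.54), *Nhp2* (-0.73) and *Grwd1* (-0.59), all lower, while 14.9% of all genes were called. *Nop10* (-0.49), *Npm1* (-0.46), *Ubtf* (-0.49), *Nop2* (-0.49) and *Bop1* (-0.43) then passed the threshold on the adjusted p but not that on the fold change. Of the members called without the correction, *Nop58* (-0.42), *Gnl3* (-0.46) and *Rrp12* (0.49) passed neither. The members' median became -0.10. For TGF-β in control cells the correction left *Ncl* (-0.92), *Rrp12* (-0.75) and *Nop10* (0.53) called, and in the libraries labelled KO *Ncl* (-0.59) was joined by *Rrp1b* (-0.72), where 11.9% and 10.5% of all genes were called.

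**Figure D5:**
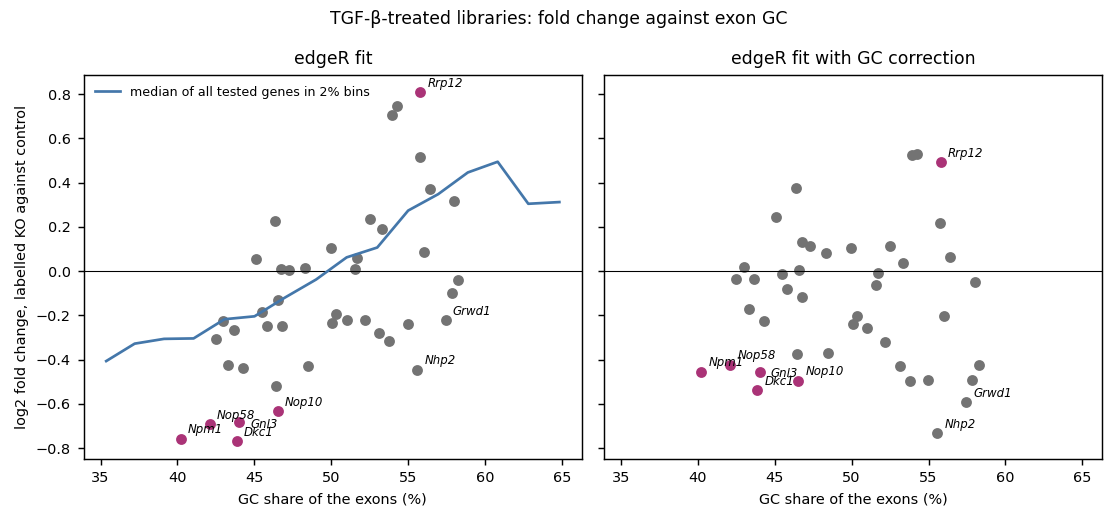
Log2 fold change between the treated groups (vertical axis) against the GC share of the exons in percent (horizontal axis) for the 44 genes, without (left) and with (right) correction for GC, with the 6 genes called without correction in purple and the median of all tested genes in bins of 2% as a line. The Spearman correlation over the 44 genes was 0.58 on the left and 0.0014 on the right, and *Dkc1* remains below -0.5 on both sides.

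Several members also host small nucleolar RNAs in their introns or exons, the guides of the reactions that other members carry out. By the annotation, 7 of the 44 members (15.9%) contain such a gene on the same strand, against 1.20% of 22380 protein-coding genes. They are *Nop56* and *Nop58* with 4 each, *Ncl*, *Gnl3* and *Wdr43* with 3 each, *Tsr1* with 2 and *Dkc1* with 1. Between the treated groups the 7 hosts had a median log2 fold change of -0.44, with 3 called lower, and the other 37 members -0.13, with 2 called lower and 1 higher, where 6.57% of all genes were called lower and 8.47% higher. The hosts' exons had a median of 44.0% GC and the others' 51.6%, and with the GC correction the medians were -0.24 and -0.06. Of the 3 hosts called lower, *Dkc1* was also called after it, and *Nop58* (adjusted p = 0.0863) and *Gnl3* (adjusted p = 0.117, both edgeR) were not. This grouping was looked at after the values were known. The members with an E-box in the promoter window had a median of -0.22 in that comparison, and the 30 without one also -0.22.

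Other genes of the pathway, from lists drawn up with earlier results of these data known and not used as support, were measured beside the members. Of 107 further assembly factors and Pol I genes tested, TGF-β left 5 higher and 5 lower in control cells (4.67% each, against 4.69% and 4.47% of all genes), and 3 higher and 1 lower in the libraries labelled KO (2.80% and 0.935%, against 4.25% and 2.57%). Between the untreated groups 0 and 0 were called (against 1.03% and 0.798% of all genes). Between the treated ones 5 were higher and 17 lower (4.67% and 15.9%, against 8.47% and 6.57%), with a median of -0.18. The exons of the 17 lower genes had a median of 43.8% GC and those of the 5 higher ones 55.6%. With the GC correction 3 were higher and 8 lower, against 7.47% and 7.38% of all genes, and 5 of the 17 were among the 8. The median was then -0.17. Among the 40 small subunit factors, *Mphosph10*, a partner of *Imp3* and *Imp4*, was at -1.12, *Nob1*, the nuclease of the last cut of the small subunit RNA, at 1.07 and the helicase *Dhx37* at 0.88. Among the 50 large subunit factors *Pelp1* was at 0.92, *Rrp8* at -0.82 and *Ddx18* at -0.76. Among the 17 Pol I genes *Ptrf* was at 0.59 and *Taf1d* at -0.58. All of these were called with edgeR at a Benjamini-Hochberg adjusted p between 0.00395 and 0.0473, and with the GC correction *Dhx37* (0.54), *Ptrf* (0.30) and *Taf1d* (-0.25) were not.

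After TGF-β in control cells, *Tcof1* (treacle, a cofactor of Pol I) was at -1.20, *Pelp1* at -1.25, *Dhx37* at -0.91, *Nob1* at -0.86 and *Ddx55* at -0.80, while *Rcl1* was at 1.03, *Sbds* at 0.87, *Cd3eap* at 0.73 and the Pol I subunit *Polr1d* at 0.70, each called. In the libraries labelled KO, TGF-β moved *Ddx55* (-0.81), *Las1l* (0.77), *Cd3eap* (0.77) and *Riok2* (0.76) past the thresholds. Of the 9 tested genes of the Myc network, *Mxd4*, a repressor that competes for the same partner, was higher in the libraries labelled KO without (1.10) and with TGF-β (1.28), and no other gene of that list was called in the 4 comparisons. In control libraries, *Myc* itself had 55.5 and 76.2 CPM before and 65.6 and 36.2 CPM after TGF-β, and in those labelled KO 52.5 and 77.9 CPM before and 37.4 and 117.1 CPM after it. The replicates of each treated group lay far apart, and *Myc* was not called in any comparison.

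The counting itself limits some members. Besides *Fbl*, exon windows of 75 bases recur elsewhere in the genome for 14.8% of *Nop56*, 14.5% of *Pes1* and 11.9% of *Npm1*, whose counts could be split with near-identical copies. Exons overlap a gene on the opposite strand over 1240 bases in *Tsr1* (with *Srr*), 353 in *Bysl* (with *Ccnd3*), 185 in *Polr1a* and 144 in *Nop14*, and whether strand was used in counting is not given in the sources used here. Exons of *Nop56* also contain small nucleolar RNAs over 100, 72 and 70 bases. On NCBIM37, the called members lie at chr1:59741853-59768968 (*Nop58*, plus strand), chr1:88241294-88256030 (*Ncl*, minus), chr2:112102083-112103426 (*Nop10*, plus), chr11:33052287-33063206 (*Npm1*, minus), chr14:31825620-31832275 (*Gnl3*, minus), chr19:41937342-41970643 (*Rrp12*, minus) and chrX:72341193-72355116 (*Dkc1*, plus), and all 7 are annotated as protein-coding.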

How the data were processed

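The counts of 8 NMuMG libraries were used, in 4 groups of 2 biological replicates named by the sample titles. The authors deposited raw counts of reads per gene, without normalization, with 1 column for each of the 8 libraries. Per the paper's methods, reads were aligned with subjunc to mm10 and mm9 and duplicates were removed, whereas the submitters' processing notes list HISAT2, limma and mm10. Which tool counted the reads, and with which strand setting, is not given in the sources used here. Paper and labels also differ on the kit, the sequencing system and whether reads were paired. All 37310 gene identifiers and their order matched GENCODE vM1 on NCBIM37, which gave symbols, exon lengths, GC shares and positions. A single alignment cannot use both assemblies, and the one behind these counts was not tested. Promoter windows came from a RefSeq table on GRCm38.p6, and no position was carried from one build to the other.

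Counts were fitted with edgeR 4.0.16 in R 4.3.3 (TMM factors, filterByExpr, 4 group means, glmQLFit and glmQLFTest on all 8 libraries) with Benjamini-Hochberg adjustment over the 13028 genes tested. A call required an adjusted p below 0.05 together with a log2 fold change above 0.5 in size, the interaction by the adjusted p alone. The fit had 4 residual and 5.50 prior degrees of freedom and a biological coefficient of variation of 0.180. Totals of 4297832 to 13574397 counts put the level of 3 counts at 0.238 to 0.661 CPM, a floor that covers counting error only. The scripts were tested on simulated data. The members, the other gene lists and the motifs were chosen with earlier results of these data known. Values in every library are given for members called in any comparison, for the 3 members with the smallest interaction p and for the 1 member of each role with the largest absolute log2 fold change over the 4 comparisons (and for *Rrp1b* in the libraries labelled KO, chosen after its values were seen), and of other genes for *Gm13507* and *Myc*. Of each other list, at most the 3 called genes with the largest absolute log2 fold change in a comparison are named. Further members are given by their fold changes. The alternatives were DESeq2 1.42.0, limma-voom (limma 3.58.1), RLE factors, cyclic loess, no filter, a minimum mean of 10 counts, a replicate block, the 4 libraries of a comparison alone, no fold threshold, thinned counts and each library left out, and, added after seeing the data, a GC correction (loess span 0.5), a block with exchanged numbers and the GC correction with the block.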

Additional observations from a re-analysis of the deposited data

How the results depend on the processing

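No result of the members changed direction past a threshold under any of the settings tried. For TGF-β in control cells, 5 members were called without the filter on low counts (1 higher and 4 lower, against 9.88% of all genes) in place of 3, and cyclic loess moved their median to -0.15. For TGF-β in the libraries labelled KO, the 1 member called became 2 with DESeq2 and 0 in a fit of the 4 libraries alone, against 9.49% and 7.13% of all genes. Between the untreated groups, 1 member was called with DESeq2, 2 without the filter and 4 in a fit of the 4 libraries alone, all lower. Of all genes, 3.29, 3.69 and 6.12% were called there in either direction. Between the treated groups 0 members were called in a fit of the 4 libraries alone (against 3.09% of all genes). With the GC correction, chosen after seeing the data, 2 members were called for TGF-β in the libraries labelled KO (against 10.5% of all genes) and 3 between the treated groups (against 14.9%), where the median became -0.0985. The causes of these shifts were not tested.

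Leaving out each library in turn gave 0 to 4 members called for TGF-β in control cells (0 without either untreated control library), 0 to 2 for TGF-β in the libraries labelled KO, 0 to 0 between the untreated groups, 1 to 9 between the treated ones and 0 to 0 for the interaction. The counts over all tested genes moved as well, from 139 to 1479, 136 to 1381, 41 to 393, 486 to 2788 and 0 to 6. For TGF-β in the libraries labelled KO the count was 0 without any 1 of the 4 untreated libraries or without the first treated library labelled KO, and 2 without either treated control library. The members' median ran from -0.14 to -0.022, from -0.22 to 0.086, from -0.16 to -0.10, from -0.31 to -0.047 and from -0.19 to 0.14 in the same order. Over the 21 alternative settings the adjusted p ran from 3.23e-05 to 0.0899 for *Ncl*, from 7.35e-05 to 0.150 for *Rrp12* and from 0.0112 to 0.20 for *Nop10* under TGF-β in control cells. Between the treated groups it ran from 0.000565 to 0.0657 for *Dkc1*, 0.000178 to 0.0820 for *Npm1*, 0.00214 to 0.102 for *Nop58*, 0.00576 to 0.136 for *Nop10*, 0.00578 to 0.156 for *Gnl3* and 0.00024 to 0.105 for *Rrp12*.

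All groups share the replicate numbers 1 and 2, but nothing says that a number marks a shared culture or day. Deviations of same-numbered libraries correlated at 0.30 between untreated and treated control cells and at -0.47 between the treated groups, so the numbers were not taken as pairs. With the replicate block, the member called for TGF-β in the libraries labelled KO was lost (0 members, against 5.19% of all genes), and the counts of the other comparisons were 1 higher and 2 lower, 0, and 1 higher and 5 lower, against 6.38, 1.15 and 11.4% of all genes called, down from 9.16, 1.83 and 15.0%. With the block and the numbers of the treated libraries labelled KO exchanged, 7, 2, 1 and 10 members were called in the 4 comparisons, and 15.0, 11.9, 4.1 and 21.6% of all genes. With the block and the GC correction, 2 members were called for TGF-β in the libraries labelled KO (against 8.63% of all genes) and 2 between the treated groups (against 12.6%), where the median was -0.10.

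Of all tested genes, 238 were called between the untreated groups, against 428 with DESeq2, 797 in a fit of the 4 libraries alone, 756 without the filter and 150 with the replicate block. Between the treated groups it was 1959 against 402 in a fit of the 4 libraries alone, and for TGF-β in control cells 1194 against 483. The members had mean counts of 83.3 (*Gar1*) to 3866 (*Npm1*), so counting error limits *Gar1* and *Fbl* (101.1 counts) most.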
